A study of Mus musculus with 6 samples.

Results

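The miRNAs described here are arms of the miR-7 and miR-671 hairpins, which are tied to the neuronal RNAs Cdr1as and Cyrano. They were measured in small RNA from extracellular vesicles, small membrane-bound particles shed by cells, that were isolated from mouse brain. The members were taken by name: mmu-miR-7a-5p, mmu-miR-7b-5p, mmu-miR-7a-1-3p, mmu-miR-671-5p and mmu-miR-671-3p, written below without the species prefix. They make up 5 of the 1926 rows of the deposited table, each has a row of its own, and all 5 were among the 308 miRNAs tested. The group SE-BDEV holds vesicles of mice that had a status epilepticus, which is a seizure that does not stop by itself, and the group CON-BDEV those of matched controls, with n = 3 libraries each. Both groups carry day 10 in their titles. The sources used here do not give what the day is counted from, how the seizure was set off, or the strain, age, sex and brain region. The labels also do not say whether a library is 1 animal or a pool, so p-values measure only the spread between these libraries, which may be technical.

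Cdr1as is a circular RNA that is abundant in neurons and carries a long array of sites for miR-7. It also holds a site that pairs almost fully with miR-671, and miR-671 can direct the slicing of Cdr1as there. Cyrano is a long noncoding RNA whose extended pairing with miR-7 leads to the destruction of miR-7, a process called target-directed miRNA degradation. In mouse brain miR-7 is thus tied to 2 long RNAs, a circle that binds it and a linear RNA that removes it. The deposited table lists miRNAs, so neither Cdr1as nor Cyrano is measured in the values below.

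The mature sequences are shown because the 2 miR-7 guide arms are almost the same molecule, while their partner arms tell the hairpins apart. They are from RefSeq (GRCm38.p6), 5′ to 3′, with the seed, bases 2 to 8, in capitals:
miR-7a-5p: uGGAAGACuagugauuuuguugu
miR-7b-5p: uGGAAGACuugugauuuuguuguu
miR-7a-1-3p: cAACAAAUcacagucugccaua
miR-7a-2-3p: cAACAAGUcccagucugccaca
miR-7b-3p: cAACAAGUcacagccagccuca
miR-671-5p: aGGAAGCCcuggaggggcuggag
miR-671-3p: uCCGGUUCucagggcuccacc

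The guide arms miR-7a-5p and miR-7b-5p share the seed GGAAGAC, and no other row matched to the RefSeq table has it. Over the 23 bases of miR-7a-5p they differ by a single substitution, A10U, counted from the 5′ end with the miR-7a base first, and miR-7b-5p is 1 base longer. The sources used here do not say whether the authors' counting allowed a mismatch, so reads could be split between the 2 rows. The seeds of miR-7a-1-3p, miR-671-5p and miR-671-3p were not found in any other matched row. The partner arms miR-7a-2-3p and miR-7b-3p are not members but share a seed with each other.

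On GRCm38.p6 miR-7a-5p is encoded by 2 hairpins, at chr13:58392841-58392863 (minus strand, Mir7-1) and chr7:78888295-78888317 (plus strand, Mir7-2), and its reads cannot be assigned to either. The arm miR-7a-1-3p, at chr13:58392800-58392821, comes from Mir7-1 alone. In GENCODE M21, of the same build, Mir7-1 lies in an intron of Hnrnpk, an RNA-binding protein gene, on the same strand. miR-7b-5p is at chr17:56243017-56243040 (plus strand), and neither Mir7b nor Mir7-2 overlaps another annotated gene. The 2 arms of miR-671 are at chr5:24592132-24592154 and chr5:24592171-24592191 (plus strand), within a coding exon of Chpf2, a chondroitin polymerising factor, and opposite an exon of a Smarcd3 transcript. The miR-671 hairpin is shown because both of its arms are members, which are in capitals in order:
Mir671 hairpin: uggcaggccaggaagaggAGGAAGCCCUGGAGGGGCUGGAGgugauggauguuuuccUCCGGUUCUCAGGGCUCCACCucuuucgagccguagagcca

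The sites that give the set its name can be read in the GENCODE transcripts. C230004F18Rik, which RefSeq lists with the synonym Cdr1as, lies on chromosome X, and 1700020I14Rik, listed with the synonym Cyrano, on chromosome 2. The miR-7 seed match GTCTTCC occurs 123 times on the sense strand of transcript C230004F18Rik-206, which is 3354 nt long, with a median of 18 nt from the start of a match to the next. Of 141767 transcripts 13.8% hold this match at least once, as do 27.3% of those within 10% of its length, and outside this gene the highest count in a transcript was 11. Cyrano transcript 1700020I14Rik-202, 8300 nt long, holds it 2 times, and 47.4% of transcripts of like length hold it. The miR-671-5p seed match GGCTTCC occurs once in C230004F18Rik-206, and 31.3% of transcripts of like length hold it.

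A site for each pairing is shown, in DNA letters, with bases that pair with the miRNA in capitals:
miR-671-5p site in the Cdr1as locus: tTCCAGCatCTCCAGGGCTTCCa
miR-7 site in the Cdr1as locus: tCcAgAAAAatcCaAGTCTTCCA
miR-7 site in Cyrano: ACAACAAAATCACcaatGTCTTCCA
The miR-671-5p site pairs at 19 of 23 positions, and 1 of the miR-7 seed matches overlaps it. Of the miR-7 matches in this transcript the one shown pairs best over its length, at 16 of 23 positions. In Cyrano both ends of miR-7 pair, at 21 positions in all, around an unpaired stretch in the middle. These matches are descriptions of the letters, and no binding was measured.

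**Figure D1:**
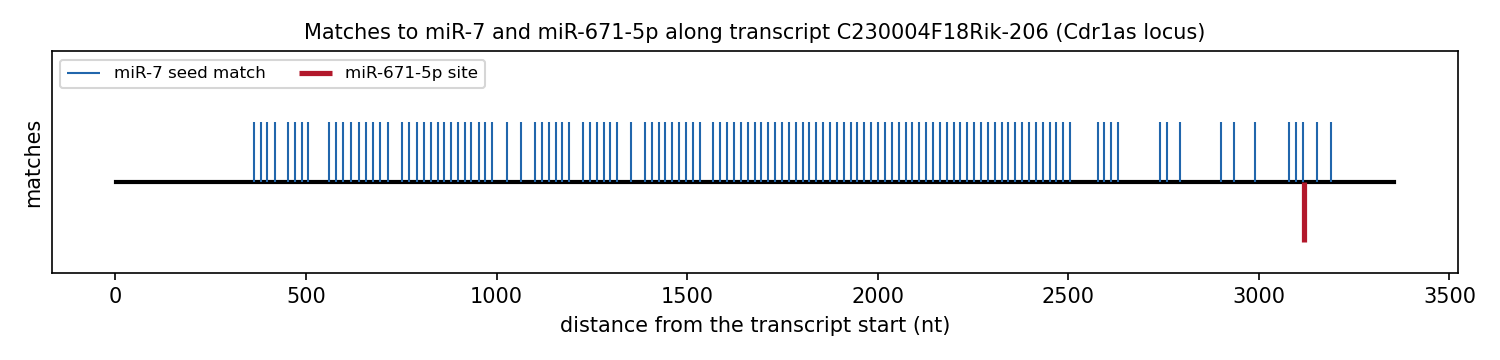
Positions along transcript C230004F18Rik-206 of the Cdr1as locus, as distance from its start in nt. Lines above the transcript are the 123 miR-7 seed matches and the line below it is the single miR-671-5p site, which lies near the end of the array.

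The 6 libraries held 4400167 to 9391887 reads assigned to miRNAs, if the step between RPM values (reads per 1000000 reads) is 1 read. The sources used here do not state this, and the read numbers and Poisson intervals below rest on it. A mean of 10 RPM over the libraries was required for testing. Both libraries numbered 3 stood apart in miR-24-3p, at 3128 RPM in SE-BDEV 3 and 3544 RPM in CON-BDEV 3, while it was listed at 0 in the other 4, so results are also given without both. Among 6 neuronal markers miR-124-3p ranged from 6654 to 9540 RPM in SE-BDEV and from 7689 to 9134 RPM in CON-BDEV. The scarcest of the 6, miR-132-3p, was at 163 to 368 RPM over the libraries. Log2 differences, SE-BDEV minus CON-BDEV, were above 0 for 5 of the 6, as for 57.5% of tested miRNAs, and below 0 for miR-124-3p. Their median was 0.26, beside 0.06 over all tested miRNAs, and 0 of the 6 passed limma. An unadjusted p under 0.05 was found for 1 of the 6, against 10.4% of all tested miRNAs. It was miR-129-5p (log2 difference 0.52, limma adjusted p = 0.438), at 3735 to 4985 RPM in SE-BDEV and 2720 to 3268 RPM in CON-BDEV. Of 6 rows of blood and leukocyte markers, the red cell miRNAs miR-451a and miR-144-3p had a value of 0 throughout, while miR-486a-5p/486b-5p, also found in red cells, was at 102 to 111 RPM in SE-BDEV and 83.6 to 199 RPM in CON-BDEV. The leukocyte miRNA miR-142a-5p was higher in SE-BDEV (log2 difference 1.85, limma adjusted p = 0.0076). All SE-BDEV values of miR-142a-3p and miR-223-3p lay above all CON-BDEV values, as for 10.7% of the 308 tested miRNAs. The first did not pass (limma adjusted p = 0.344), and the second, at 0 to 7.21 RPM, was below the limit for testing. The 6 rows summed to between 201.8 and 247 RPM in SE-BDEV libraries and between 117 and 229 RPM in CON-BDEV libraries. Of 3 microglial and inflammatory markers 2 passed the test, both higher in SE-BDEV, where 0.974% of all 308 tested miRNAs passed. The 3 summed to between 381 and 455 RPM in SE-BDEV libraries and between 55.0 and 85.0 RPM in CON-BDEV libraries. The part of these lists in the results below was not tested. Fewer vesicles from a cell type and less miRNA per vesicle cannot be told apart in such libraries.

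No member passed the test between SE-BDEV and CON-BDEV. Of the 5 members 0 passed limma at an adjusted p under 0.05, against a background of 0.974% of all 308 tested miRNAs, and 0 had an unadjusted p under 0.05, against 10.4%. The authors' deposited DESeq2 results called none of the 5 (0 at either threshold), where 1.12% of miRNAs passed the adjusted and 6.52% the unadjusted. The groups overlapped for every member, and they did not overlap for 16.2% of the tested miRNAs. At such shares, counts of 0 among 5 members do not set them apart. Log2 differences, SE-BDEV minus CON-BDEV on the log2(RPM + 1) scale, were -0.17 and -0.19 for the miR-7 guide arms, 0.13 for miR-7a-1-3p, 0.25 for miR-671-5p and 0.13 for miR-671-3p. Their median was 0.13, beside a median of 0.06 over all tested miRNAs. A p above the threshold does not show that the groups are alike, and the intervals below give the sizes that these libraries leave possible.

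By rank of mean RPM the members ran from near the top of the tested miRNAs to near the lowest. miR-7a-5p ranked 18 of all rows by mean RPM, between miR-138-5p and miR-29a-3p, and miR-7b-5p ranked 29, between miR-674-5p and miR-9-3p. Both miR-7 guide arms thus stood among abundant brain miRNAs. miR-671-5p ranked 133, beside miR-122-5p and miR-1188-5p, and miR-671-3p ranked 272. miR-7a-1-3p ranked 304, close to the limit for testing. In every case the ranges of these neighbours over the 6 libraries overlapped that of the member. Among the members miR-7a-5p, miR-7b-5p and miR-671-5p did not overlap one another or the rest in any library, while miR-671-3p and miR-7a-1-3p did not differ beyond their spread. RPM counts whole reads of mature miRNAs that are all 21 to 24 bases long, so these levels need no correction for length. The sequences differ in other ways, as G and C make up 34.8% of miR-7a-5p and 69.6% of miR-671-5p. Whether unlike sequences yield reads equally was not tested, so levels of different miRNAs are compared as reads, not as molecules.

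**Figure D2:**
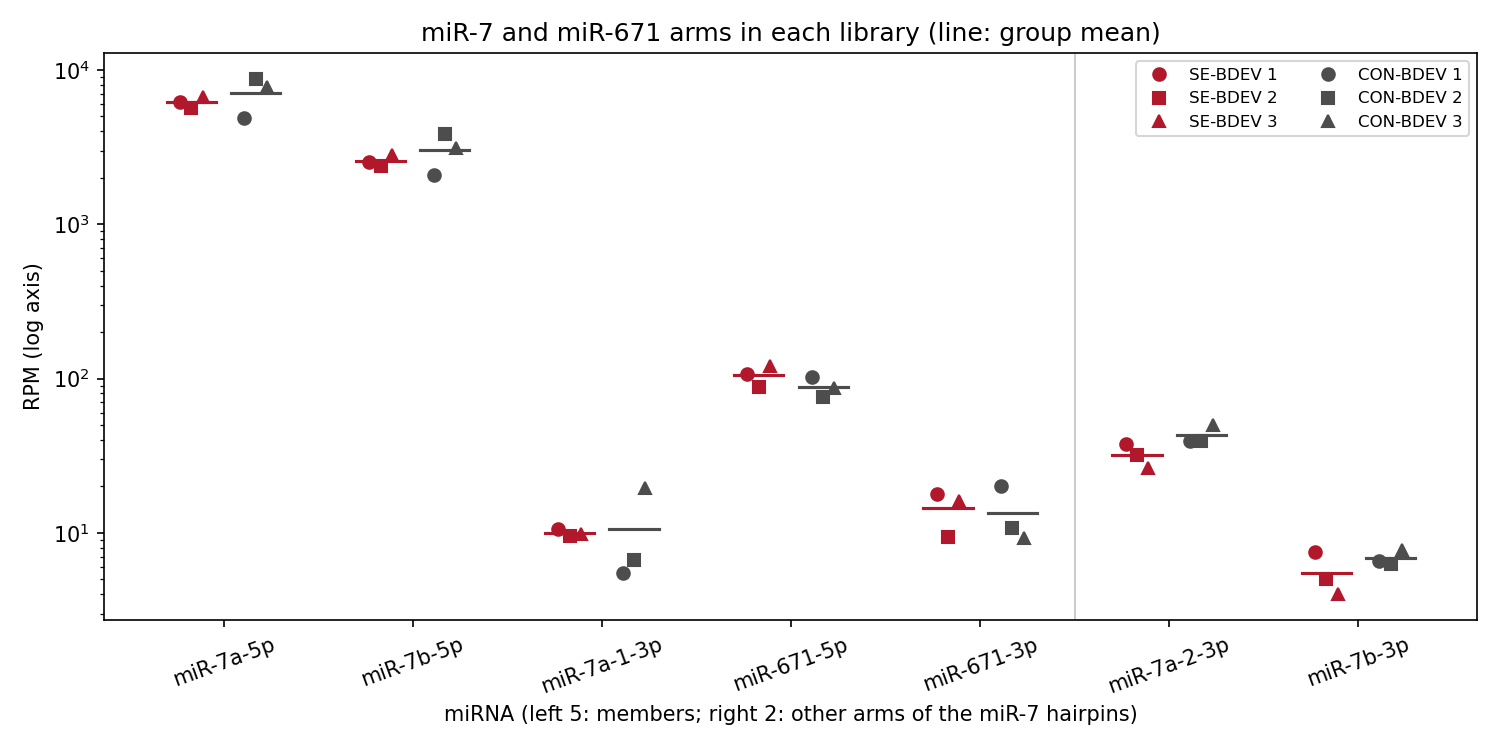
RPM on a log axis of the 5 members and, right of the grey line, the other arms of the miR-7 hairpins. Red points are SE-BDEV and grey points CON-BDEV libraries (circle, square and triangle for replicates 1, 2 and 3), and lines are group means. SE-BDEV points lie within or across the CON-BDEV points for each member, and miR-7a-2-3p alone separates the groups.

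mmu-miR-7a-5p is the most abundant guide arm of the family here, and carries the seed that pairs with Cdr1as and Cyrano. It stood at 6206, 5627 and 6645 RPM in SE-BDEV 1, 2 and 3, against 4847, 8759 and 7784 RPM in CON-BDEV 1, 2 and 3. The SE-BDEV values lay close together and all 3 fell inside the CON-BDEV range, whose lowest value was CON-BDEV 1. It averaged 6159 ± 511 RPM in SE-BDEV and 7130.0 ± 2036 RPM in CON-BDEV (SD, n = 3). The log2 difference was -0.17 ± 0.23 (SE, limma adjusted p = 0.80), with a 95% interval of -0.68 to 0.34, that is from 0.626-fold to 1.26-fold. The authors' deposited table gives a log2 fold change of -0.31 ± 0.30 (SE, adjusted p = 0.860).

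mmu-miR-7b-5p, the guide arm of Mir7b with the same seed, followed miR-7a-5p library by library. Its level was 2527, 2372 and 2826 RPM in SE-BDEV, against 2080.4, 3817 and 3137 RPM in CON-BDEV, again with every SE-BDEV value inside the CON-BDEV range. It averaged 2575 ± 231 RPM in SE-BDEV and 3011 ± 875 RPM in CON-BDEV (SD, n = 3). The log2 difference was -0.19 ± 0.26 (SE, limma adjusted p = 0.80, 95% interval -0.74 to 0.37), and the authors' deposited table gives -0.33 (adjusted p = 0.848). Together the 2 guide arms made up between 0.693% and 1.26% of all RPM, with 8733, 7999 and 9471 RPM in SE-BDEV against 6927, 12576 and 10921 RPM in CON-BDEV. The arms held 9154 to 71362 reads a library, and the exact Poisson 95% interval of miR-7a-5p in CON-BDEV 1, which covers counting error only, was 4782 to 4913 RPM.

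The size of the miR-7 guide difference moved with single CON-BDEV libraries. Without CON-BDEV 1 the log2 differences of miR-7a-5p and miR-7b-5p were both -0.43 (limma adjusted p = 0.690 and 0.766). Without CON-BDEV 2 they were 0.00056 and 0.0076 (limma adjusted p = 0.998 and 0.992). CON-BDEV 1, with the least miR-7, was also the library with the fewest reads, and CON-BDEV 2 held the most reads of its group. SE-BDEV 1 held the most reads of all 6 libraries, with the guide arms at 0.873% of its RPM. That share was below those of SE-BDEV 3 (0.947%) and CON-BDEV 3 (1.09%). Without both libraries numbered 3 the log2 differences were -0.14 and -0.20. The part of depth in these values was not tested.

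mmu-miR-7a-1-3p is the partner arm of Mir7-1, usually discarded when the guide is loaded, and was the lowest member. It stood at 10.5, 9.61 and 9.78 RPM in SE-BDEV, against 5.45, 6.63 and 19.6 RPM in CON-BDEV. The SE-BDEV libraries were nearly equal, and CON-BDEV 3 was high while the other 2 controls lay below every SE-BDEV library. These values rest on 24 to 129 reads, and exact Poisson 95% intervals, which cover counting error only, ran from 3.49 to 8.12 RPM for CON-BDEV 1 and from 16.4 to 23.3 RPM for CON-BDEV 3. The average was 9.98 ± 0.497 RPM in SE-BDEV and 10.6 ± 7.86 RPM in CON-BDEV (SD, n = 3). The log2 difference was 0.13 ± 0.51 (SE, limma adjusted p = 0.948, 95% interval -0.99 to 1.24). Its sign depended on the scale, since the mean RPM was lower in SE-BDEV and the mean log2(RPM + 1) higher, and the authors' deposited table gives -0.13 (adjusted p = 0.997). Without both libraries numbered 3 it was 0.66 (limma adjusted p = 0.701).

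mmu-miR-671-5p is the arm that pairs with Cdr1as. It stood at 107, 88.5 and 119.7 RPM in SE-BDEV, against 102, 75.6 and 87.0 RPM in CON-BDEV. SE-BDEV 1 and 3 were above all controls, and SE-BDEV 2 lay among them. It averaged 105 ± 15.7 RPM in SE-BDEV and 88.2 ± 13.3 RPM in CON-BDEV (SD, n = 3). The log2 difference of 0.25 ± 0.30 was within the spread between libraries (SE, limma adjusted p = 0.782, 95% interval -0.40 to 0.90), and the authors' deposited table gives 0.18 (adjusted p = 0.892). Without both libraries numbered 3 the difference was 0.14.

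mmu-miR-671-3p, the other arm of that hairpin, was scarcer. It stood at 17.8, 9.41 and 16.1 RPM in SE-BDEV, against 20, 10.8 and 9.27 RPM in CON-BDEV, where each group held a high and a low library. The average was 14.4 ± 4.44 RPM in SE-BDEV and 13.4 ± 5.80 RPM in CON-BDEV (SD, n = 3). The log2 difference was 0.13 ± 0.41 (SE, limma adjusted p = 0.921, 95% interval -0.75 to 1.01), and the authors' deposited table gives 0.039 (adjusted p = 0.997). Without both libraries numbered 3 it turned to -0.17 (limma adjusted p = 0.930).

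**Figure D3:**
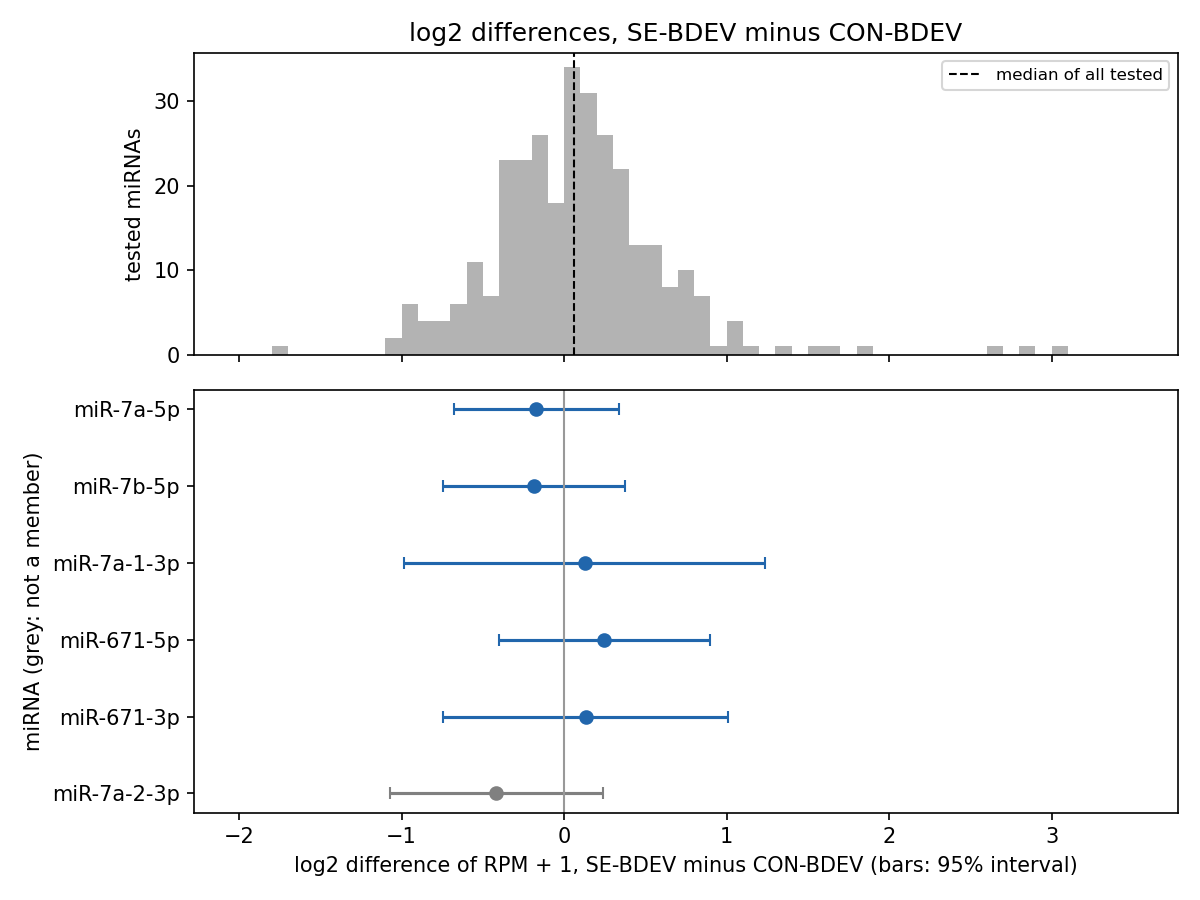
Upper panel, the number of tested miRNAs by log2 difference of RPM + 1, SE-BDEV minus CON-BDEV, with a dashed line at their median of 0.06. Lower panel, the same quantity for the members (blue) and miR-7a-2-3p (grey) with 95% intervals, all of which span 0.

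Ratios within a library are free of the scaling between libraries. The ratio of miR-7b-5p to miR-7a-5p was 0.407, 0.422 and 0.425 in SE-BDEV 1, 2 and 3, against 0.429, 0.436 and 0.403 in CON-BDEV 1, 2 and 3. This proportion of the 2 guide arms varied little over all 6 libraries, while their level varied up to 1.83-fold. Its log2 difference was -0.015 (exact permutation p = 0.7, two-sided, n = 3, smallest possible 0.1). As the rows differ by a single base, the part of the counting in this ratio was not tested.

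For miR-671 the 5p arm exceeded the 3p arm in every library. The ratio of miR-671-5p to miR-671-3p was 5.99, 9.40 and 7.41 in SE-BDEV, against 5.10, 7.0 and 9.38 in CON-BDEV. The groups overlapped (log2 difference 0.11, exact permutation p = 0.7, two-sided, n = 3). The arm whose site lies in Cdr1as thus had more reads than the other arm in both groups.

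Reads of miR-7a-5p outnumbered those of miR-671-5p by 58.2, 63.6 and 55.5 to 1 in SE-BDEV, against 47.5, 116 and 89.5 to 1 in CON-BDEV. The SE-BDEV libraries were again closer together, and the groups overlapped because CON-BDEV 1 was below all of SE-BDEV. The log2 ratio of miR-671-5p to miR-7a-5p was -5.88 ± 0.0996 in SE-BDEV and -6.30 ± 0.66 in CON-BDEV (SD, n = 3), a difference of 0.42 (exact permutation p = 0.4, two-sided). Without CON-BDEV 1 the difference was 0.79, and without CON-BDEV 2 it was 0.14. Adjusted by the Benjamini-Hochberg method over the 4 ratios computed, every p was 0.7.

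**Figure D4:**
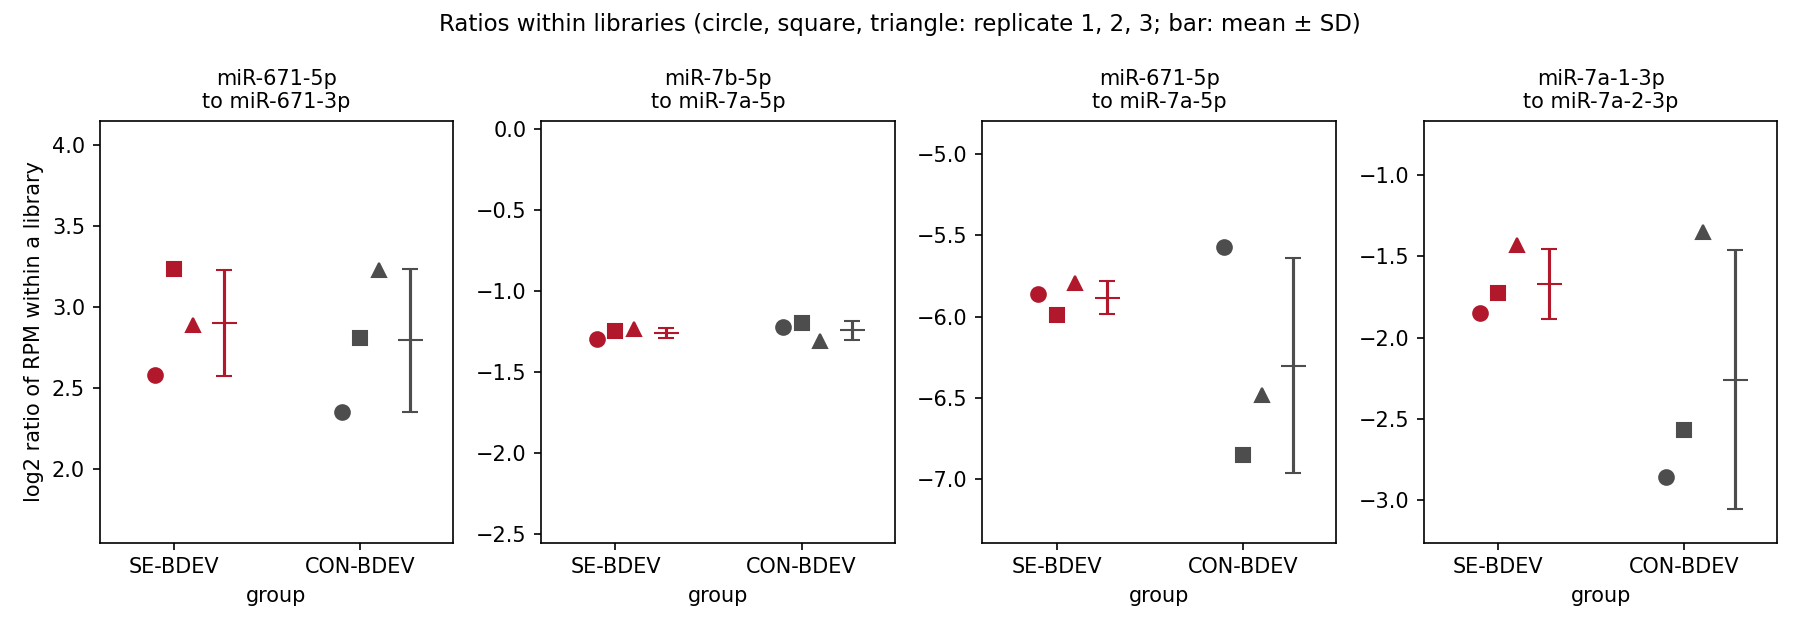
Log2 ratios of RPM within a library, SE-BDEV left and CON-BDEV right in each panel, on axes of equal span. Points are libraries and bars are mean ± SD. The 2 guide arms keep a nearly fixed ratio, and the 3 SE-BDEV points lie closer together than the CON-BDEV points for miR-671-5p to miR-7a-5p and for miR-7a-1-3p to miR-7a-2-3p.

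The other miR-7 partner arms are specific to their hairpins. miR-7a-2-3p, the partner arm of Mir7-2, was at 37.9, 31.8 and 26.4 RPM in SE-BDEV, against 39.5, 39.3 and 50.0 RPM in CON-BDEV. All SE-BDEV values lay below all CON-BDEV values, as for 5.52% of tested miRNAs, and the difference did not pass (log2 difference -0.42 ± 0.30, SE, limma adjusted p = 0.646). The authors' deposited table gives -0.49 (adjusted p = 0.638). Without both libraries numbered 3, which held its lowest SE-BDEV and its highest CON-BDEV value, the log2 difference was -0.18 (limma adjusted p = 0.930). miR-7b-3p was at 7.56, 5.004 and 4.00 RPM in SE-BDEV, against 6.59, 6.26 and 7.75 RPM in CON-BDEV, and was below the limit for testing. miR-7a-2-3p exceeded miR-7a-1-3p in every library, by 3.6, 3.31 and 2.70-fold in SE-BDEV and 7.25, 5.93 and 2.55-fold in CON-BDEV. This ratio was chosen after its values were seen, and the groups overlapped because of CON-BDEV 3 (exact permutation p = 0.4, two-sided, n = 3).

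For 4 of the 5 members, all but miR-671-5p, the whole SE-BDEV range lay inside the CON-BDEV range, a pattern that 14.9% of the tested miRNAs had. The reverse, a CON-BDEV range inside that of SE-BDEV, held for 0 members and 19.2% of tested miRNAs. The pattern was noticed after the values were seen, the 2 guide arms are not independent, and no test was made.

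Among all tested miRNAs the profile most like that of miR-7a-5p over the 6 libraries was miR-7b-5p, by the root mean square difference of log2(RPM + 1) values centred on each miRNA's mean. It differed by 0.040 log2 units, against a median of 0.49 over the 307 others. The next were miR-195a-5p (0.17) and miR-379-5p (0.17), both lowest in CON-BDEV 1 as miR-7a-5p was. For miR-671-5p the 3 most alike were miR-149-5p, miR-540-3p and miR-125b-1-3p, at 0.13 each. Its own partner arm was not among them, but rests on only 47 to 167 reads a library. The part of counting error in this was not tested. For miR-671-3p they were miR-339-3p (0.19), miR-17-3p (0.21) and miR-1843a-3p (0.21).

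Other miRNAs that a long RNA is known to degrade or a circular RNA to bind, in mouse or human, were compared as a list of 8. All 8 were tested, and 0 passed limma, against 0.974% of all tested miRNAs. An unadjusted p under 0.05 was found for 0, against 10.4%, and 0 passed in the authors' deposited table, against 1.12%. With shares this low, counts of 0 in a list of 8 do not set it apart. Of their log2(RPM + 1) differences 5 were above and 3 below 0, where 57.5% of all tested miRNAs were above. Their median was 0.04, beside 0.06 over all tested miRNAs. miR-29b-3p, which the Nrep transcript degrades, was at 379, 294 and 1165 RPM in SE-BDEV, against 302, 326 and 392 RPM in CON-BDEV. Its log2 difference of 0.58 (limma adjusted p = 0.660) came with SE-BDEV 3 and was 0.087 without both libraries numbered 3. miR-222-3p, a target of degradation by Bcl2l11, had a log2 difference of -0.49 (limma adjusted p = 0.673), while miR-221-3p of the same list had 0.21 (limma adjusted p = 0.818). miR-138-5p, which the testis circular RNA of Sry binds, was at 8680.0, 3652 and 8996 RPM in SE-BDEV, against 5969.5, 5916 and 7395 RPM in CON-BDEV. Its log2 difference was 0.042 (limma adjusted p = 0.963), and its sign and that of miR-30b-5p turned with median-of-ratios scaling. The mean RPM of miR-30b-5p was lower in SE-BDEV (59.2 against 68.2 RPM in CON-BDEV), although its log2 difference was 0.038.

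miR-375-3p, a neuroendocrine marker, is abundant in pituitary and pancreatic islet, as miR-7 is. It stood at 56.3, 37.2 and 39.0 RPM in SE-BDEV, against 37.5, 22.7 and 24.5 RPM in CON-BDEV (log2 difference 0.64, limma adjusted p = 0.438). SE-BDEV libraries 1 and 3 lay above all controls, and SE-BDEV 2 lay just under CON-BDEV 1. Whether the 2 miRNAs differ in their response was not tested.

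With the replicate number as a block, limma called 10 of the 308 miRNAs (3.25%), against 3 without it, and 0 members were among them.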

How the data were processed

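Small RNA of 6 vesicle libraries, 3 SE-BDEV and 3 CON-BDEV, was purified with the miRNeasy Micro Kit and sequenced after QIAseq miRNA library preparation, per the labels' protocols. The authors deposited RPM values for 1926 miRNA rows, plus their DESeq2 results. These deposited results hold a mean signal, log2 fold changes, a Wald score and p-values, raw and adjusted. Their direction, SE-BDEV over CON-BDEV, was read from the RPM values. Per the submitters' processing notes the build was mm9. The sources used here give no tool versions, aligner, counting method or use of molecular identifiers. Low RPM values were whole multiples, within 0.02 of a step, of a step taken as 1 read, the smallest listed being 2 reads, so a count table was not assumed and no count model was fitted. A count of 3 reads equals 0.319 to 0.682 RPM, for counting error only.

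limma 3.58.1 in R 4.3.3 was fitted to log2(RPM + 1) of the 308 miRNAs averaging at least 10 RPM, with trend and robust empirical Bayes, two-sided, Benjamini-Hochberg adjusted over all 308, called under 0.05. Fold changes on this scale understate those of low miRNAs. The fit was tested on simulated data. Ratios within libraries were compared by exact permutation (smallest p = 0.1 for 3 against 3). Sequences came from RefSeq (GRCm38.p6) and GENCODE M21 of the same build. The deposited files hold no coordinates. All 5 members, and 1637 of the rows, matched RefSeq names. Named were the members, the other miR-7 arms, miRNAs sharing a seed, the list bound by long RNAs, the 3 most alike profiles and level neighbours. Members and lists were chosen with earlier results of these data known. Figures used matplotlib 3.10.9.

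The groups share replicate numbers. Deviations from group means correlated at 0.216, 0.202 and 0.462 for the pairs numbered 1, 2 and 3, above the bound of 0.1 for pairing, but at -0.064, -0.061 and -0.081 without miR-24-3p, and the labels name no pairing. With miR-24-3p, SE-BDEV 1 with CON-BDEV 2 (0.336) and SE-BDEV 2 with CON-BDEV 1 (0.200) also passed the bound. The other pairs of unlike number were below 0.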

Additional observations from a re-analysis of the deposited data

How the results depend on the processing

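Over 18 alternatives to the fit, 0 of the 5 members passed in any, with adjusted p of 0.413 or more. The replicate block changed the call of no member and gave 10 called miRNAs in place of 3 (4 over miRNAs above 0 in all libraries), array weights gave 6, and single libraries left out gave 2 to 8, the highest without CON-BDEV 2. The cause was not tested. For a ratio the block left the value as it was (0.11 for miR-671-5p to miR-671-3p, exact sign-flip p = 0.75, smallest possible 0.25).

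Some uncalled values changed sign. Leaving out 1 library gave log2 differences of -0.43 to 0.00056 for miR-7a-5p, -0.43 to 0.0076 for miR-7b-5p, -0.19 to 0.64 for miR-7a-1-3p and -0.073 to 0.44 for miR-671-3p, which was -0.17 without both libraries numbered 3. miR-671-5p kept its sign under all 18, from 0.14 to 0.36. With 1 library left out the log2 ratio differences ran from -0.12 to 0.32 for miR-671-5p to miR-671-3p and from -0.049 to 0.0071 for miR-7b-5p to miR-7a-5p, while miR-671-5p to miR-7a-5p stayed above 0 (0.14 to 0.79). The log2 difference of the miR-7 guide sum, -0.17 with all libraries, ran from -0.43 to 0.0026 under 9 alternatives. These shifts were below the SD between libraries within groups (0.33), which leaving out 1 of 3 libraries cannot exceed, so they do not show stability. Its value was -0.25 with median-of-ratios scaling.

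Of the miRNAs with an unadjusted p under 0.05, 25 were higher and 7 lower in SE-BDEV, but 16 higher and 19 lower with median-of-ratios scaling, and no scaling turned the sign of a member. The runs without both libraries numbered 3, the block over miRNAs above 0 in all libraries and the ratio of miR-7a-1-3p to miR-7a-2-3p were chosen after seeing the data. The edgeR and DESeq2 fits were not run, because the values were not taken as counts. At 24 to 167 reads a library, depth limits miR-7a-1-3p and miR-671-3p most.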
